A study of Rattus norvegicus with 6 samples.

Results

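Potassium channel genes were taken as all entries of the deposited table of expression values whose symbol begins with Kcn, with every listing kept. The rule found 79 entries with 78 symbols among 13843 entries with 13556 symbols, because Kcnq1 is listed 2 times. The rule uses the symbol alone and no measured value. The cells were neonatal rat ventricular myocytes, a primary culture of heart muscle cells from newborn rats. RNA-seq was made from 3 groups of 2 libraries after 3 days of treatment. All 3 groups received phenylephrine (PE), an agonist of alpha-1 adrenergic receptors that induces hypertrophic growth of cultured myocytes. The PE group also carried a control short hairpin RNA. The PE+TSA group carried the same control hairpin and received trichostatin A (TSA), an inhibitor of histone deacetylases. The PE+TSA+shJIP1 group received PE and TSA with a hairpin against JIP1, the scaffold protein of the JNK kinase pathway that the gene Mapk8ip1 encodes. The labels call the third group a knockout in the genotype field and a hairpin in the treatment text, and no group without PE was analysed here. The labels do not say whether replicates came from separate cultures, so p-values measure the spread between these libraries only, which may be technical.

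Potassium channels let potassium ions leave the cell and so end the action potential and hold the resting membrane potential. In ventricular myocytes the Kv channels give the fast transient outward and the delayed rectifier currents, the inward rectifiers of the KCNJ family set the resting potential, and the 2-pore-domain KCNK channels carry background leak. Accessory subunits (Kv beta, KChIP and KCNE proteins) change the gating or surface level of the pore-forming subunits. Silent Kv subunits form channels only together with other Kv subunits.

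Levels are given in FPKM, fragments scaled by transcript length and by the mapped fragments of the library. The scaling is meant to let levels of different genes be set side by side. Here such comparisons are limited, since the housekeeping gene Gapdh was listed at only 1.06 to 3.94 FPKM. Rankings and ratios of different genes below are therefore those of the listed values. Read totals are not part of the table. PE replicate 2 was estimated to be 20.8 times shallower than PE replicate 1. The estimate came from the ratios of low values of the same entries in these libraries. PE replicate 2 held 3667 zeros among all entries, and the other 5 libraries held 1407 to 1837. Among the Kcn entries it held 45 zeros, compared with 14 to 22 elsewhere, and 13 Kcn entries were at 0 in this library alone. Its lowest Kcn value above 0 was 0.451 FPKM, so a 0 in PE replicate 2 does not show that a low transcript was missing. A listed 0 can also be a failed estimate, since the ribosomal protein gene Rpl32, which every cell uses, was listed at 0 in 4 of the 6 libraries.

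Mapk8ip1, the gene targeted by the hairpin, was at 3.77 and 4.39 FPKM in the PE libraries. Its level was 14.6 and 17.9 FPKM with TSA, and 1.80 and 3.65 FPKM with TSA and the JIP1 hairpin. The hairpin libraries lay below the PE+TSA libraries with no overlap, by −2.25 ± 0.34 (SE) on the log2 scale, with an adjusted p of 0.0770 (limma, Benjamini-Hochberg over all entries tested). The labels of the hairpin libraries and the measured level of the targeted gene thus pointed the same way, without passing the 0.05 threshold.

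Marker genes of several cell types were measured beside the channels, as cultures of this kind can hold non-myocytes. The summed level of 6 cardiomyocyte markers was 21133 and 16925 FPKM in PE, 9298 and 4184 FPKM in PE+TSA, and 8857 and 4522 FPKM in PE+TSA+shJIP1, with all 6 above 0 in every library. The sum of 8 neuronal marker entries was 8.25 and 4.49 FPKM in PE, 87.6 and 88.3 FPKM in PE+TSA, and 35.4 and 40.8 FPKM with the hairpin. Elavl3 and Stmn2 of this list were at 0 in both PE libraries. Elavl4 had no such order, at 2.03 and 0 FPKM in PE, 0.542 and 1.23 FPKM in PE+TSA, and 0.965 and 1.01 FPKM with the hairpin. The first Syt1 listing was at 23.0 and 0 FPKM in the PE+TSA libraries, so their near-equal sums hide an entry on which they differed. Smooth muscle and pericyte markers summed to 1670 and 1358 FPKM in PE, to 411 and 267 FPKM in PE+TSA, and to 520 and 501 FPKM with the hairpin. Fibroblast markers summed to 947 and 1493 FPKM in PE and to 469 to 686 FPKM in the other 4 libraries. Endothelial markers lay between 7.82 and 37.8 FPKM, macrophage markers between 9.53 and 17.8 FPKM, Schwann cell markers between 0.687 and 2.73 FPKM, and red cell markers between 0.899 and 4.97 FPKM. For TSA, 2 of 6 tested neuronal entries rose (Snap25 and Syn1) and 1 of 7 tested smooth muscle entries fell (Acta2, limma). Of all tested entries, 0.627% were called higher and 0.183% lower for TSA. For TSA and the hairpin together, 2 of 6 neuronal entries rose (Snap25 and the second Syt1 listing). In the same comparison 3 of 7 smooth muscle entries (Acta2, Cspg4 and Myh11), 1 of 6 cardiomyocyte entries (Tnni3) and 1 of 6 fibroblast entries (Dcn) fell. Beside these stand 4.11% higher and 4.16% lower of all tested entries. No marker entry passed for the hairpin alone, and none of the endothelial, macrophage, Schwann cell or red cell entries passed in any comparison. In bulk RNA, fewer cells of a type and less RNA per cell cannot be told apart. The part of these cell types in any result on a channel gene was not tested.

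The Kcn entries together held 202 and 208 FPKM in PE, 262 and 228 FPKM in PE+TSA, and 184 and 164 FPKM in PE+TSA+shJIP1. Both TSA libraries thus lay above the PE libraries in summed level, and both hairpin libraries below them, with no overlap among the 3 groups. All entries of the table summed to 462883 and 401714 FPKM in PE, 426501 and 681760 FPKM in PE+TSA, and 1074800 and 518592 FPKM in PE+TSA+shJIP1. These totals differed more than the Kcn sums did. The Kcn sums were not scaled to them, so the order of the groups holds for unscaled sums only. The 6 entries with a mean of at least 10 FPKM were Kcnk3, the first Kcnq1 listing, Kcng2, Kcnh2, Kcnj5 and Kcne1. These 6 held 62.1% and 61.3% of the Kcn sum in the PE libraries, 50.6% and 40.1% with TSA, and 42.0% and 30.4% with the hairpin. At the other end, Kcnh5, Kcnj15 and Kcnk18 were listed at 0 in all 6 libraries, and 26 entries were above 0 in all 6.

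**Figure D1:**
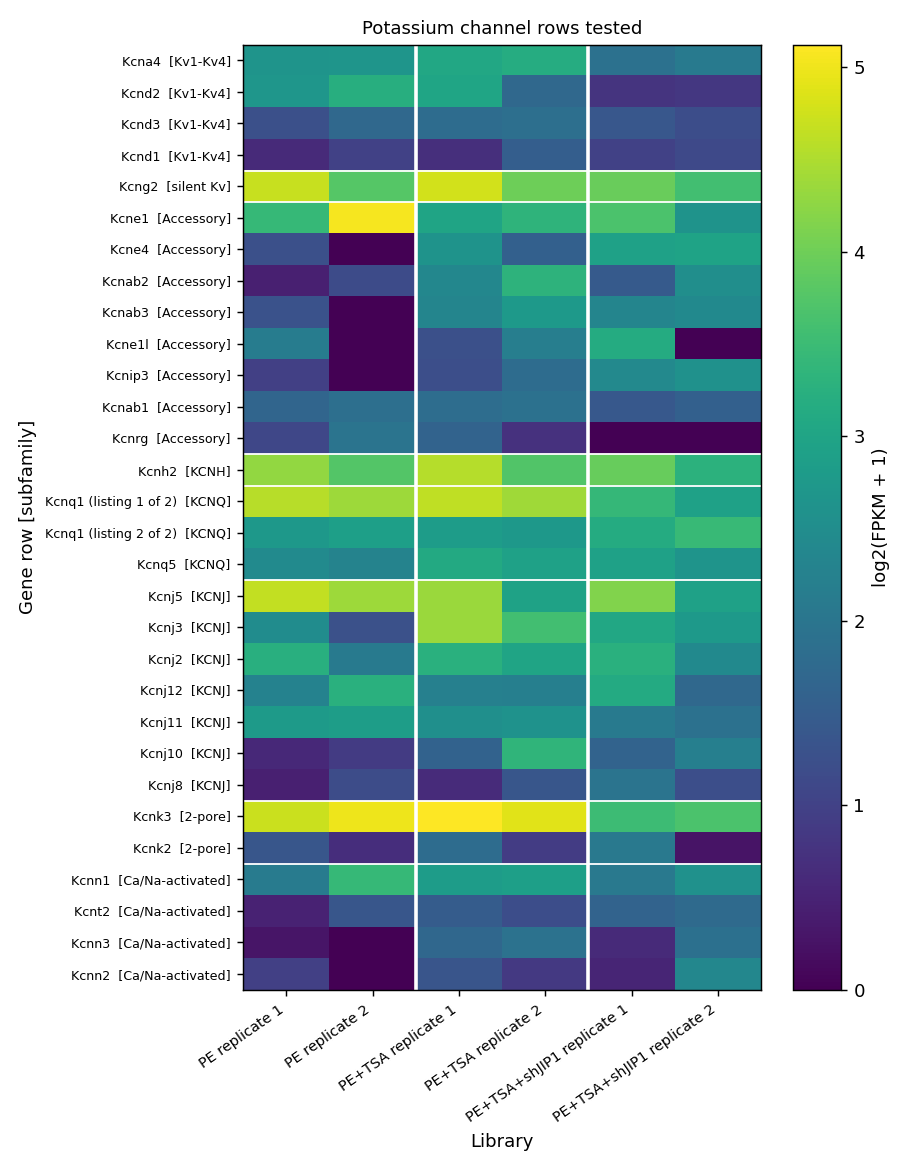
Heat map of log2(FPKM + 1) for 30 of the 32 tested potassium channel entries (rows, grouped by subfamily and ordered by mean level) in the 6 libraries (columns); white lines part the groups and the subfamilies, and a lighter colour is a higher level. Kcnk3 and the first Kcnq1 listing are darker in both PE+TSA+shJIP1 libraries than in the other 4.

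By subfamily, the sums differed in which group was high. The 10 KCNK entries summed to 28.1 and 32.0 FPKM in PE, 38.8 and 31.8 FPKM in PE+TSA, and 14.4 and 15.2 FPKM with the hairpin. The 5 KCNQ entries summed to 33.1 and 30.1 FPKM in PE, 37.6 and 32.6 FPKM in PE+TSA, and 24.3 and 22.0 FPKM with the hairpin. In both of these subfamilies the hairpin libraries lay below all others. The 16 pore-forming Kv1 to Kv4 entries summed to 17.9 and 22.6 FPKM in PE, 31.7 and 33.8 FPKM in PE+TSA, and 15.6 and 27.6 FPKM with the hairpin. Here both PE+TSA libraries lay above the other 4. The 13 KCNJ entries summed to 29.5 to 59.4 FPKM and had the largest sum of the 8 subfamilies in each library but PE+TSA+shJIP1 replicate 2, where the accessory subunits had 29.6 FPKM. The 11 accessory subunit entries summed to 20.9 to 39.0 FPKM, the 7 silent subunit entries to 13.8 to 27.8 FPKM, the 7 KCNH entries to 10.7 to 22.8 FPKM and the 10 calcium- and sodium-activated channel entries to 7.75 to 16.0 FPKM. In these 4 subfamilies and in KCNJ the libraries of different groups overlapped.

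**Figure D2:**
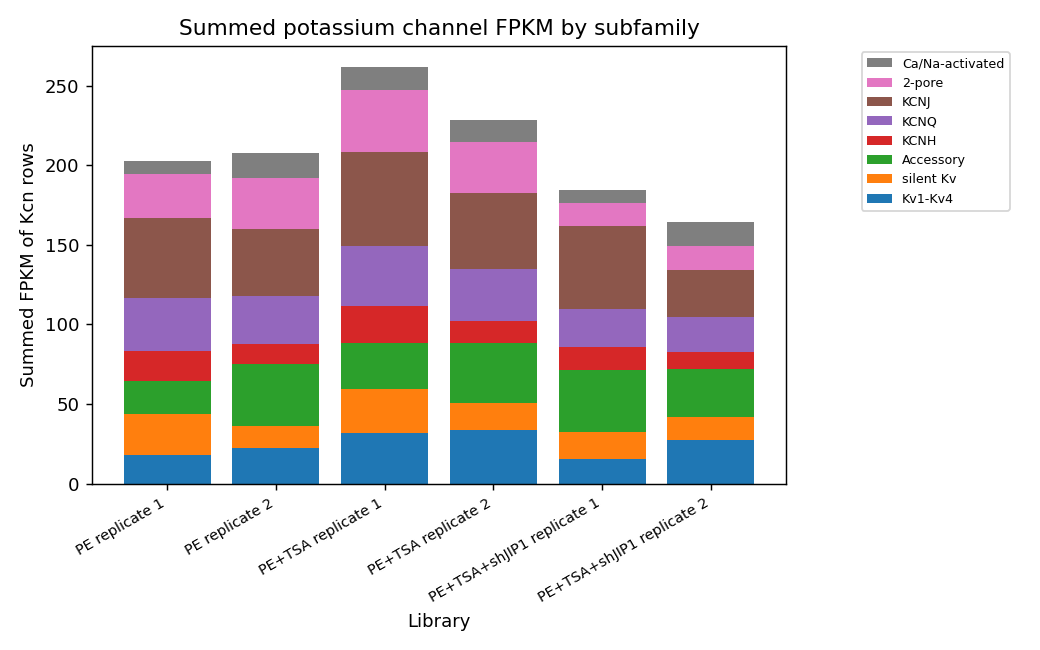
Stacked bars of the summed level (FPKM, linear axis from 0) of the Kcn entries of each of the 8 subfamilies, 1 bar per library. Total height is 202 and 208 FPKM in PE, 262 and 228 FPKM with TSA, and 184 and 164 FPKM with TSA and the JIP1 hairpin, and the 2-pore segment is smallest in the last pair.

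Tests were made for entries whose mean over all 6 libraries reached 1 FPKM, on log2(FPKM + 1), a scale that understates the change of low genes. Of the 79 Kcn entries, 32 (40.5%) passed this filter, compared with 10359 (74.8%) of all entries. Just inside it were Kcnn2 at 1.32, Kcnrg at 1.13 and Kcnd1 at 1.03 FPKM, and just outside Kcna1 at 0.994, Kcnmb1 at 0.975 and Kcnj13 at 0.947 FPKM. Of the 32 tested entries, 11 had a PE mean under 1 FPKM and passed through the other groups, and 2, Kcnd2 and Kcnrg, had a mean under 1 FPKM with the hairpin. Counts over the tested entries therefore describe those entries and not all members.

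The first comparison, PE+TSA against PE, asks what the deacetylase inhibitor does to PE-treated myocytes. No Kcn entry passed an adjusted p of 0.05 in limma, while 0.811% of all tested entries did (65 higher and 19 lower). With 1 library left out, the count over all entries was 203 without PE replicate 1 and 6 to 19 without any of the other 5, and the Kcn count was 0 in each case. At an unadjusted p under 0.05, which 18.7% of all entries reached, there were 7 Kcn entries with a higher value (21.9%; among them Kcnj3, Kcnab3, Kcnab2, Kcnn3, Kcnj10 and Kcne4) and none with a lower one. Among all entries the shares were 11.6% higher and 7.1% lower. The estimate was positive for 25 of the 32 tested Kcn entries (78.1%) and for 56.9% of all entries. The median estimate was 0.32 on the log2 scale for the Kcn entries and 0.10 for all entries. Under quantile normalization the median of all entries moved to −0.02 and that of the Kcn entries to 0.03, with 18 positive and 14 negative Kcn estimates. Over the 76 Kcn entries above 0 in any library, 26 had both TSA libraries above both PE libraries (28.3% of all such entries) and 8 had both below (17.2%). Either order held for 44.7% of these Kcn entries and for 45.5% of all such entries.

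The second comparison, PE+TSA+shJIP1 against PE+TSA, asks what the JIP1 hairpin does under TSA. It shares its PE+TSA libraries with the first comparison, so the estimates of the first and second comparisons are not independent. No Kcn entry passed the adjusted threshold, and 0.29% of all entries did (19 higher, 0.183%, and 11 lower, 0.106%, limma). With any 1 library left out, 7 to 16 of all entries and no Kcn entry passed. At an unadjusted p under 0.05 there were 4 lower Kcn entries (12.5%; Kcnk3, the first Kcnq1 listing, Kcna4 and Kcnd2) and no higher one, against 8.94% lower and 5.93% higher, or 14.9% in all, among all entries. The median estimate was −0.32 for the tested Kcn entries and 0.00 for all entries, and 8 of 32 Kcn estimates were positive (25%), against 49.7% of all entries. Both hairpin libraries lay below both PE+TSA libraries for 24 of 76 Kcn entries (31.6%) and for 22.3% of all entries above 0, and above them for 8 Kcn entries (21.8% of all). Either order held for 32 of the 76 (42.1%) and for 44.1% of all.

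The third comparison set PE+TSA+shJIP1 against PE and so measures TSA and the hairpin together. Here 3 of 32 Kcn entries passed the adjusted threshold (9.38%), near the 8.27% of all tested entries (426 higher and 431 lower). Of these, 1 was higher (4.11% of all entries were called higher) and 2 were lower (4.16%). The latter were Kcnk3 and the first Kcnq1 listing, which fell. An unadjusted p under 0.05 was reached by 10 Kcn entries, 4 higher and 6 lower (31.2%), and by 30.7% of all entries (17.1% higher and 13.6% lower). With any 1 of the 5 libraries other than PE replicate 1 left out, no Kcn entry passed, and 4 to 19 of all entries did, and without PE replicate 1 it was 4 Kcn entries and 941 of all. The median estimate was 0.16 for the Kcn entries and 0.10 for all entries, but −0.22 for the Kcn entries without PE+TSA+shJIP1 replicate 1, −0.46 for those with a mean of at least 5 FPKM and −0.17 under quantile normalization. Of the estimates, 17 of 32 were positive for the Kcn entries (53.1%) and 55.4% for all, with 15 of 32 positive under quantile normalization. Both hairpin libraries lay above both PE libraries for 23 of 76 Kcn entries (31% of all entries above 0) and below them for 16 (21.6% of all). Either order held for 51.3% of the Kcn entries and 52.6% of all entries.

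**Figure D3:**
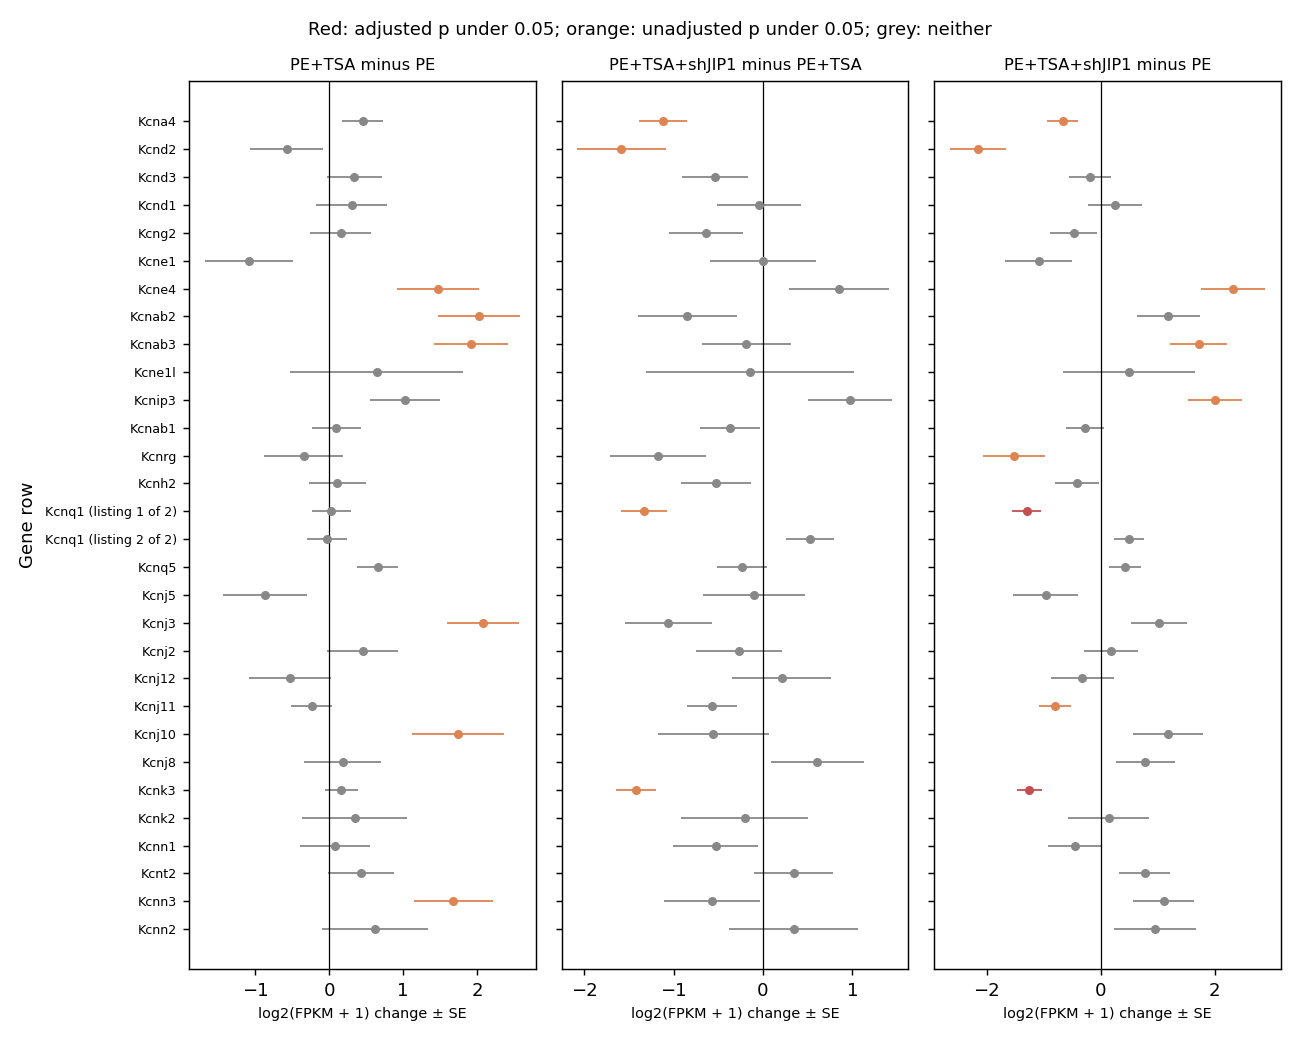
Estimated change of 30 of the 32 tested potassium channel entries in the 3 comparisons (log2 of FPKM + 1, points with bars of 1 SE); red points passed an adjusted p of 0.05 in limma, orange points an unadjusted p of 0.05, and grey points neither. Red points are Kcnk3 and the first Kcnq1 listing (left of 0) in PE+TSA+shJIP1 minus PE, and the other 2 panels hold none.

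Kcnk3 encodes an acid-sensitive 2-pore-domain leak channel that helps to set the resting potential. It had the highest mean of all Kcn entries, 23.4 FPKM over the 6 libraries. The PE libraries held Kcnk3 at 25.04 and 30.6 FPKM (27.8 ± 3.94, SD, n = 2), the PE+TSA libraries at 33.8 and 28.7 FPKM (31.3 ± 3.64) and the hairpin libraries at 10.4 and 11.8 FPKM (11.1 ± 1.01). The PE and PE+TSA libraries overlapped, and both hairpin libraries lay below all 4. Kcnk3 fell by 1.25 ± 0.22 (SE) on the log2 scale between PE and PE+TSA+shJIP1 (limma adjusted p = 0.0289). Against PE+TSA the estimate was −1.42 ± 0.22 with an unadjusted p of 0.000611, the smallest of the tested Kcn entries in that comparison, and an adjusted p of 0.0845. TSA alone gave 0.16 ± 0.22 (adjusted p = 0.714). The fall against PE did not pass with any of 5 libraries left out in turn, the exception being PE replicate 1, and without the shallow PE replicate 2 it was −1.11 with an adjusted p of 0.107. Kcnk2, a mechanically gated member of the same family, was between 0.200 and 3.18 FPKM, and its groups overlapped. The other 8 KCNK entries were below the filter. Kcnk3, like Kcnq1, overlaps another annotated locus in the rat annotation, and the strand of counting is not given.

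Kcnq1 forms the pore of the slow delayed rectifier, with Kcne1 as its accessory subunit. The PE libraries held the first Kcnq1 listing at 22.9 and 19.8 FPKM (21.3 ± 2.16, SD, n = 2), the PE+TSA libraries at 23.7 and 19.9 FPKM (21.8 ± 2.68) and the hairpin libraries at 9.70 and 6.64 FPKM (8.17 ± 2.16). As for Kcnk3, both hairpin libraries lay below the other 4. This listing fell by 1.30 ± 0.26 on the log2 scale against PE (limma adjusted p = 0.0379). Against PE+TSA the estimate was −1.33 ± 0.26 with an adjusted p of 0.111. The fall did not pass with any 1 library left out, and without PE replicate 2 it was −1.40 with an adjusted p of 0.109.

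The second Kcnq1 listing did not share this order. It was at 5.63 and 6.43 FPKM in PE, 6.09 and 5.65 FPKM in PE+TSA, and 7.90 and 9.999 FPKM in PE+TSA+shJIP1. Both hairpin libraries lay above the other 4, with an estimate against PE+TSA of 0.53 ± 0.27 (adjusted p = 0.424). The ratio of the first listing to the second was 3.08 to 4.06 in the 4 libraries without the JIP1 hairpin and 1.23 and 0.664 in those with it. The table gives no transcript names or coordinates, so which transcripts of Kcnq1 the listings hold, and how reads were divided between them, is not given in the sources used here. 

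Kcne1 was at 9.84 and 32.2 FPKM in PE, 6.93 and 9.05 FPKM in PE+TSA, and 11.7 and 5.22 FPKM with the hairpin. The level of 32.2 FPKM came from the shallow PE replicate 2, and the estimate for TSA was −1.09 ± 0.59 (adjusted p = 0.376). Kcnq5, a further member of the KCNQ family, was at 4.44 and 3.89 FPKM in PE, 7.66 and 6.64 FPKM in PE+TSA, and 6.64 and 5.26 FPKM with the hairpin. All 4 TSA-treated libraries were above the PE libraries for Kcnq5, with an adjusted p of 0.277 for TSA. Kcnh2, which encodes the pore of the rapid delayed rectifier, was at 18.7 and 12.5 FPKM in PE, 22.4 and 12.3 FPKM in PE+TSA, and 14.3 and 8.84 FPKM with the hairpin. The 3 groups overlapped for Kcnh2, and the smallest adjusted p was 0.507. The 6 other KCNH entries were below the filter.

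**Figure D4:**
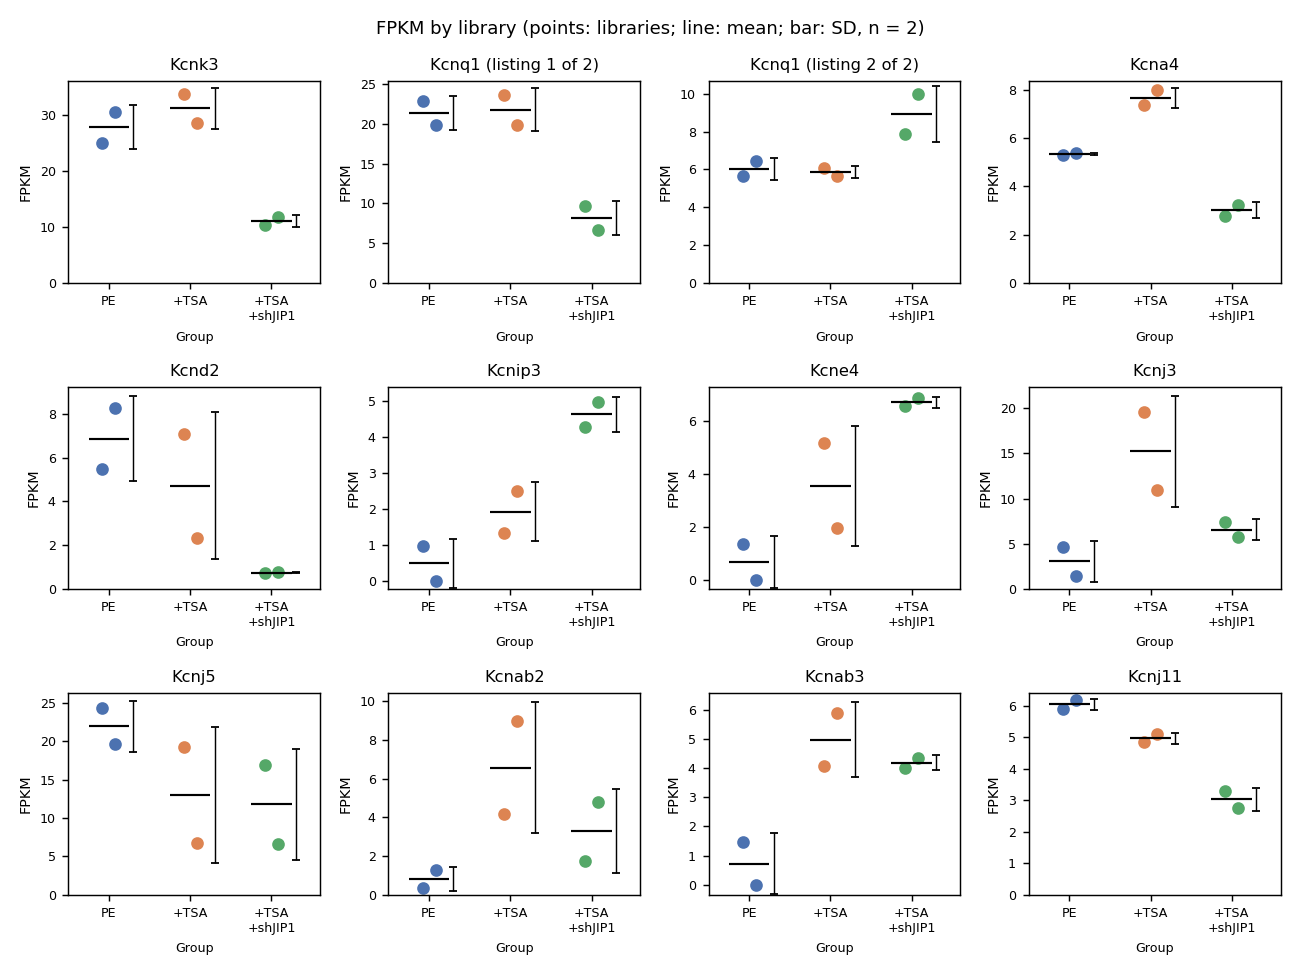
Level (FPKM, linear axes, 1 panel per entry) of 12 potassium channel entries in the 6 libraries: points are libraries, horizontal lines group means and the bar beside them the SD of 2 libraries. Kcnk3 and the first Kcnq1 listing are low in both PE+TSA+shJIP1 libraries, and the second Kcnq1 listing is high there.

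Kcna4 and Kcnd2 both encode pores of the fast transient outward current, which shapes early repolarization. Kcna4 was at 5.32 and 5.39 FPKM in PE, 7.39 and 7.98 FPKM in PE+TSA, and 2.77 and 3.24 FPKM in PE+TSA+shJIP1. The 3 groups did not overlap, and the hairpin estimate was −1.12 ± 0.27 with an unadjusted p of 0.00564 and an adjusted p of 0.154. Kcnd2 was at 5.50 and 8.27 FPKM in PE, 7.11 and 2.34 FPKM in PE+TSA, and 0.709 and 0.767 FPKM in PE+TSA+shJIP1. Both hairpin libraries of Kcnd2 were below the other 4, while the TSA libraries were far apart. The Kcnd2 estimate was −1.58 ± 0.49 against PE+TSA (adjusted p = 0.226) and −2.16 ± 0.49 against PE (adjusted p = 0.0506), the latter just above the threshold. Kcnd2 passed against PE with a pseudocount of 0.1 FPKM (adjusted p = 0.0454) or 0.5 FPKM (0.0465), under quantile normalization (0.0458) and after trimmed-mean scaling (0.0470).

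Kcnd3 encodes a close relative of the Kcnd2 channel and was at 1.39 and 2.31 FPKM in PE, 2.48 and 2.64 FPKM in PE+TSA, and 1.63 and 1.30 FPKM with the hairpin. The ratio of Kcnd2 to Kcnd3 was 3.96 and 3.58 for the PE libraries, 2.86 and 0.886 with TSA, and 0.434 and 0.591 with the hairpin. The listed value of Kcnd2 was thus the higher of the pair in both PE libraries and the lower in both hairpin libraries. Kcnip2, the accessory subunit of these channels in ventricle, was not among the listed Kcn entries.

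Promoter sequence is shown for Kcna4 and Kcnd2 because both had lower values in both hairpin libraries than in PE+TSA and both carry the same current. That order held for 24 of the 76 Kcn entries above 0 in any library. No promoter window was available for Kcnk3 and Kcnq1, which have entries that passed against PE. Each line holds the 250 bases before the annotated start of the gene, 5′ to 3′ on the plus strand, from RefSeq on GRCr8, at chr3:114215086-114215335 for Kcna4 and chr4:50742235-50742484 for Kcnd2. Capitals mark a match to a searched motif.
Kcna4: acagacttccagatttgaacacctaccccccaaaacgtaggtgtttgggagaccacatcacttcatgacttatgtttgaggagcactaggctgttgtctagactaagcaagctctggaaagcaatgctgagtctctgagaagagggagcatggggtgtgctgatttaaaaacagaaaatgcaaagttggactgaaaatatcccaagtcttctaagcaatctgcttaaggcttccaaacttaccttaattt
Kcnd2: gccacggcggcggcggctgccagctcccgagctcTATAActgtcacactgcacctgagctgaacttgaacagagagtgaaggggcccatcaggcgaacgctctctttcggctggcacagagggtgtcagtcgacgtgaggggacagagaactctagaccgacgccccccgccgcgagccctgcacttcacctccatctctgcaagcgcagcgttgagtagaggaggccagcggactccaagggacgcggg
The shown stretches differ in base composition, with 42.8% G and C in Kcna4 and 64.0% in Kcnd2. The motifs were searched on both strands of windows of 300 bases around the start (250 before, 50 after), for 57 windows of 53 Kcn symbols and 33469 windows in all. GGGCGG was in 52.6% of the Kcn windows and 33.1% of all windows, CAGCTG in 26.3% and 15.1%, AGATAA in 10.5% and 11.6%, and TATAA in 8.77% and 26.2%. TGANTCA and TTCAGCACC were each in 1 of the 57 Kcn windows (1.75%), and in 7.33% and 0.356% of all windows. The median share of G and C was 62.3% in the Kcn windows and 51.7% in all windows. The part of base composition in these shares was not tested. GGGCGG is the core of the GC box, CAGCTG one form of the E-box, AGATAA the motif of GATA factors, TATAA the core of the TATA box, TGANTCA the AP-1 motif and TTCAGCACC part of the REST site. Matches of different motifs may overlap, and TATAA was added after the 2 stretches were seen. The 250 bases shown hold TATAA once in Kcnd2 and none of the 6 motifs in Kcna4. A match is a string of letters and no evidence of binding.

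Kcnd1 and Kcna5, also pore-forming Kv genes, had low levels. Kcnd1 was between 0.527 and 1.88 FPKM with overlapping groups. Kcna5, the pore of the ultrarapid delayed rectifier known from atrium, was at 0.105 and 0 FPKM in PE, 0 in both PE+TSA libraries, and 0.348 and 0.218 FPKM with the hairpin, below the filter. Kcng2, a silent Kv subunit, was the only silent subunit tested and was at 24.97 and 12.6 FPKM in PE, 26.4 and 15.0 FPKM in PE+TSA, and 14.4 and 10.8 FPKM with the hairpin. For Kcng2, replicate 1 was above replicate 2 in each group, and its hairpin estimate was −0.63 ± 0.41 (adjusted p = 0.532).

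Among accessory subunits, none of the 8 tested entries passed the adjusted threshold in any comparison, and 3 had an unadjusted p under 0.05 for TSA (Kcnab2, Kcnab3 and Kcne4). Kcnab2 and Kcnab3 encode Kv beta subunits, which bind the inner face of Kv channels. Kcnab2 was at 0.364 and 1.26 FPKM in PE, 4.17 and 8.95 FPKM in PE+TSA, and 1.75 and 4.81 FPKM with the hairpin. Kcnab3 was at 1.46 and 0 FPKM in PE, 4.06 and 5.87 FPKM in PE+TSA, and 4.02 and 4.36 FPKM with the hairpin. For both genes all 4 TSA-treated libraries lay above both PE libraries. The TSA estimates were 2.03 ± 0.55 for Kcnab2 (adjusted p = 0.148) and 1.91 ± 0.50 for Kcnab3 (adjusted p = 0.141). Kcnab1, the third Kv beta gene, had a flatter profile, between 1.67 and 2.75 FPKM in all 6 libraries.

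Kcne4 encodes a KCNE subunit that inhibits Kcnq1 channels. Kcne4 was at 1.39 and 0 FPKM in PE, 5.18 and 1.97 FPKM in PE+TSA, and 6.58 and 6.88 FPKM with the hairpin. The 3 groups did not overlap, and the estimate against PE was 2.32 ± 0.56 for the hairpin group (adjusted p = 0.0557). Kcnip3, a calcium-binding KChIP protein that is also known as a transcriptional repressor, was at 0.967 and 0 FPKM in PE, 1.34 and 2.51 FPKM in PE+TSA, and 4.29 and 4.99 FPKM with the hairpin. Its groups did not overlap either, and the estimate against PE was 2.004 ± 0.47 (adjusted p = 0.0540). The 0 in PE for Kcne4, Kcnip3 and Kcnab3 came from the shallow PE replicate 2. Without PE replicate 1, which leaves that library as the only PE sample, Kcnab3, Kcne4, Kcnip3 and Kcnk3 passed against PE.

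Kcnrg encodes a soluble protein that interferes with the assembly of Kv channels. It was at 1.12 and 2.90 FPKM in PE, 2.08 and 0.653 FPKM in PE+TSA, and was listed at 0 in both hairpin libraries. The hairpin estimate of Kcnrg was −1.18 ± 0.54 (adjusted p = 0.381). Kcne1l, an older symbol of Kcne5, was between 0 and 7.92 FPKM with no order by group.

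The inward rectifiers held 7 tested entries, none of which passed the adjusted threshold. Kcnj3 and Kcnj5 encode the paired subunits of the acetylcholine-gated channel. Kcnj3 was at 4.63 and 1.43 FPKM in PE, 19.6 and 10.9 FPKM in PE+TSA, and 7.41 and 5.70 FPKM with the hairpin. Kcnj5 was at 24.3 and 19.6 FPKM in PE, 19.3 and 6.70 FPKM in PE+TSA, and 16.9 and 6.63 FPKM with the hairpin. The 3 groups did not overlap for Kcnj3, while for Kcnj5 the PE libraries lay above the other 4. The TSA estimate was 2.08 ± 0.49 for Kcnj3 (unadjusted p = 0.00475, adjusted p = 0.122) and −0.87 ± 0.57 for Kcnj5 (adjusted p = 0.443). The ratio of Kcnj3 to Kcnj5 was 0.191 and 0.0727 for the PE libraries, 1.01 and 1.63 with TSA, and 0.438 and 0.860 with the hairpin. Kcnj3 was thus at or above Kcnj5 in both PE+TSA libraries only, among the 6 libraries measured.

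Kcnj2 and Kcnj12 encode pores of the classical inward rectifier current that holds the ventricular resting potential. Kcnj2 was at 8.45 and 3.24 FPKM in PE, 8.47 and 6.93 FPKM in PE+TSA, and 8.58 and 4.38 FPKM with the hairpin. Kcnj12 was at 3.80 and 8.51 FPKM in PE, 3.70 and 3.64 FPKM in PE+TSA, and 7.75 and 2.33 FPKM with the hairpin. The 3 groups overlapped for Kcnj2, and for Kcnj12 both PE libraries lay above both PE+TSA libraries while the hairpin libraries overlapped with both groups. The smallest adjusted p was 0.634 for Kcnj2 and 0.627 for Kcnj12.

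Kcnj11 and Kcnj8 encode pores of the ATP-sensitive channel, which opens when ATP is low. Kcnj11 was at 5.91 and 6.18 FPKM in PE, 4.84 and 5.10 FPKM in PE+TSA, and 3.29 and 2.77 FPKM with the hairpin. The 3 groups of Kcnj11 did not overlap, and the estimate against PE was −0.81 ± 0.28 (unadjusted p = 0.0261, adjusted p = 0.115). Kcnj8 was between 0.368 and 2.92 FPKM with overlapping TSA and PE groups. Both hairpin libraries of Kcnj8 (2.92 and 1.36 FPKM) lay above both PE libraries (0.368 and 1.27 FPKM), with a limma adjusted p of 0.348. Kcnj10, a channel best known from glia, was at 0.497 and 0.862 FPKM in PE, 2.04 and 9.19 FPKM in PE+TSA, and 2.11 and 3.63 FPKM with the hairpin. All 4 TSA-treated libraries were above PE for Kcnj10, with a TSA estimate of 1.74 ± 0.62 (adjusted p = 0.217).

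Among calcium- and sodium-activated channels, Kcnn1 had the highest mean and was at 3.39 and 9.82 FPKM in PE, 6.11 and 6.39 FPKM in PE+TSA, and 3.21 and 4.99 FPKM with the hairpin. Kcnn1 encodes a small-conductance channel opened by intracellular calcium. Kcnn3, of the same kind, was at 0.219 and 0 FPKM in PE, 2.27 and 2.82 FPKM in PE+TSA, and 0.526 and 2.69 FPKM with the hairpin. Both PE libraries were the lowest for Kcnn3, with a TSA estimate of 1.68 ± 0.54 (adjusted p = 0.183). Kcnn2 lay between 0 and 4.15 FPKM with overlapping groups. Kcnt2, a sodium-activated channel, lay between 0.404 and 2.42 FPKM. Its hairpin libraries (2.10 and 2.42 FPKM) were above the other 4, with a limma adjusted p of 0.285 against PE. Kcnmb1, the accessory subunit of the large-conductance channel in smooth muscle, was below the filter at 2.18 and 2.39 FPKM in PE, 0.258 and 0 FPKM in PE+TSA, and 1.02 and 0 FPKM with the hairpin, and was named after its values were seen. The summed smooth muscle and pericyte markers were also lower in the 4 TSA-treated libraries, although not each marker was (Notch3 was at 0.927 and 0.984 FPKM in PE, against 2.59 to 4.16 FPKM in the other 4), and their part in the level of Kcnmb1 was not tested.

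Some Kcn entries, below the filter except Kcnrg, were above 0 in both libraries of 1 group and listed at 0 in both of another. For PE against PE+TSA there were 9 such entries of the 76 above 0 in any library (11.8%), and 2.67% of all entries above 0. Among them, Kcna2, Kcne2, Kcne3, Kcnh3, Kcnh7 and Kcnk13 were above 0 in PE+TSA, and Kcnf1 and Kcng4 were above 0 in PE. For PE+TSA against the hairpin group there were 4 (5.26%, and 1.74% of all), of which Kcna5 was above 0 with the hairpin and Kcnip4, Kcnj4 and Kcnrg were above 0 in PE+TSA. For PE against the hairpin group there were 9 (11.8%, and 2.48% of all), among them Kcna2, Kcne3, Kcnh3 and Kcnk13 above 0 with the hairpin and Kcnf1, Kcng4, Kcnj4 and Kcnrg above 0 in PE. Kcne3, a KCNE subunit, had 0.340 and 1.70 FPKM with TSA, and 0.403 and 1.39 FPKM with the hairpin added. Kcna2, a Kv channel of axons, had 0.329 and 0.0703 FPKM with TSA, and 0.576 and 0.667 FPKM with the hairpin. The lowest Kcn value above 0 in PE replicate 2 was 0.451 FPKM, so values of this size could be read as 0 there. In PE, Kcnf1 was at 0.0681 and 0.708 FPKM, Kcng4 at 0.0867 and 0.451 FPKM and Kcnj4 at 0.0343 and 0.714 FPKM. Values in PE replicate 2 were 10.4, 5.2 and 20.8 times those in PE replicate 1, the library estimated to be 20.8 times deeper. These PE levels may thus rest on very few fragments, which cannot be counted without read totals. Kcn entries were low more often than others, with 40.5% against 74.8% past the filter, and the part of level in these shares was not tested. No fold change is given for entries listed at 0.

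Partner genes of potassium channels were described from a list of 21 symbols, of which 14 listed entries were tested. None passed for TSA or for the hairpin alone, where the adjusted p values nearest the threshold belonged to the second Nedd4l listing (0.151) and Abcc9 (0.203) for TSA and to Akap5 (0.217) and Abcc8 (0.218) for the hairpin. In the third comparison 3 of the 14 rose and 1 fell, beside 4.11% higher and 4.16% lower of all tested entries. Akap5, an anchoring protein for kinase A, was at 6.32 and 11.5 FPKM in PE, 20.0 and 17.2 FPKM in PE+TSA, and 54.7 and 34.2 FPKM with the hairpin, a rise of 2.21 ± 0.35 against PE (limma adjusted p = 0.0237). The second listing of Nedd4l, a ubiquitin ligase of ion channels, rose (adjusted p = 0.0442), as did Gopc, a Golgi trafficking protein (adjusted p = 0.0489). The list's median estimates were 0.32 for TSA, −0.15 for the hairpin and −0.13 for both together, beside 0.10, 0.00 and 0.10 for all entries.

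Abcc8 and Abcc9 encode the sulfonylurea receptor subunits that pair with Kcnj11 and Kcnj8. Abcc9 was at 45.1 and 45.0 FPKM in PE, 30.8 and 21.5 FPKM in PE+TSA, and 29.9 and 21.1 FPKM with the hairpin. Abcc8 was at 16.4 and 19.0 FPKM in PE, 21.4 and 24.4 FPKM in PE+TSA, and 14.5 and 12.0 FPKM with the hairpin. Both PE libraries were the highest for Abcc9 and both PE+TSA libraries the highest for Abcc8. The ratio of Abcc8 to Abcc9 was 0.364 and 0.422 for the PE libraries, 0.696 and 1.14 with TSA, and 0.486 and 0.567 with the hairpin, and the group ranges did not overlap.

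Other ion channels of the myocyte membrane give the setting of these values. Of 9 tested sodium channel entries, 1 rose for TSA, none passed for the hairpin and 2 fell in the third comparison, beside 0.627% of all tested entries higher for TSA, 0.29% called for the hairpin and 4.16% lower in the third. Fgf12, an intracellular modulator of sodium channels, was at 3.82 and 3.31 FPKM in PE, 13.8 and 13.5 FPKM in PE+TSA, and 7.94 and 8.63 FPKM with the hairpin. It rose by 1.68 ± 0.25 for TSA (limma adjusted p = 0.0492), and the hairpin estimate was −0.66 ± 0.25 (adjusted p = 0.294). The first listing of Scn3b, a beta subunit gene, fell by 2.38 ± 0.40 between PE and the hairpin group (adjusted p = 0.0260). For the hairpin alone its adjusted p was 0.276. The second Scn3b listing was at 16.9 and 0.256 FPKM in PE and gave −0.19 ± 1.14 in the third comparison (adjusted p = 0.929). The list's median estimates were 0.10, −0.66 and −0.46 in the 3 comparisons.

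Of 17 tested calcium channel entries, none passed for TSA or the hairpin alone, and 2 rose and 2 fell in the third comparison. Of all tested entries 0.811% and 0.29% passed in the first 2 comparisons and, in the third, 4.11% were higher and 4.16% lower. Cacng7, a gamma subunit of the type known from brain, was at 0.135 and 0 FPKM in PE, 6.15 and 10.9 FPKM in PE+TSA, and 6.91 and 15.4 FPKM with the hairpin. This profile was low in PE and high in the other 4 libraries, and Cacng7 rose by 3.42 ± 0.47 in the third comparison (limma adjusted p = 0.0175; 0.0525 for TSA alone). Cacna2d2, an alpha2delta subunit, was at 19.4 and 15.5 FPKM in PE, 22.0 and 19.0 FPKM in PE+TSA, and 5.12 and 5.24 FPKM with the hairpin. This profile was low with the hairpin only, as that of Kcnk3 was, and Cacna2d2 fell by 1.57 ± 0.24 against PE (adjusted p = 0.0211; 0.0607 for the hairpin alone). The T-type pore gene Cacna1g fell by 1.17 ± 0.24 (adjusted p = 0.0396) and Rrad, a GTPase that restrains L-type channels, rose by 1.16 ± 0.25 (adjusted p = 0.0450). The adjusted p was 0.125 for Cacnb1 in the TSA comparison and 0.0732 for Rrad with the hairpin alone. The list's median estimates were −0.10, −0.31 and −0.46.

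None of the 10 tested HCN and other cation channel entries passed in any comparison. Hcn4, a pacemaker channel pore, was at 23.9 and 25.3 FPKM in PE, 24.6 and 15.0 FPKM in PE+TSA, and 11.02 and 6.69 FPKM with the hairpin, with an adjusted p of 0.0538 against PE. Hcn2, its relative of ventricle, was at 4.94 and 4.09 FPKM in PE, 7.31 and 9.37 FPKM in PE+TSA, and 2.55 and 3.95 FPKM with the hairpin. Both hairpin libraries were the lowest for Hcn4 and for Hcn2, and the adjusted p of Hcn2 was 0.276 for TSA and 0.191 for the hairpin. The list's median estimates were −0.11, 0.07 and −0.33.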

How the data were processed

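The authors deposited 1 table of FPKM values for the 6 libraries, made with Cufflinks on the rat build rn6 per the submitters' processing notes. Its header names no unit. No source used here gives the aligner, annotation or strand setting, and 37 of the 78 Kcn symbols overlap another gene in the RefSeq annotation (GRCr8), whose reads cannot be told apart without strand. All 78 symbols matched RefSeq, 77 as current and 1 as an older symbol. FPKM carry no read totals, so the precision of single values is unknown.

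Values were tested as log2(FPKM + 1) with limma 3.58.1 in R 4.3.3, with 1 mean per group over all 6 libraries (3 residual and 3.27 prior degrees of freedom), a prior variance following the mean level, two-sided p-values and Benjamini-Hochberg adjustment over all 10359 entries with a mean of at least 1 FPKM. The script was tested on simulated data. Groups came from the sample titles. Tried alternatives were pseudocounts of 0.1 and 0.5 FPKM, no filter or a mean of at least 5 FPKM, trimmed-mean scaling, quantile normalization, a prior variance not following the mean, only the 2 groups compared, a replicate block, and leaving out each library.

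The text names the Kcn entries with an adjusted p under 0.05, a mean of at least 5 FPKM, the highest mean of their subfamily, or the 5 smallest p-values of a comparison, Kcnk3 and 15 known cardiac channel genes, and entries above 0 in both libraries of 1 group and at 0 in both of another. Of the gene lists it names the members called, otherwise the 2 with the smallest p. Other genes named, among them entries near the filter, Kcnab1, Kcne1l, Kcne4, Kcnj10, Kcnk2, Kcnt2, Kcnn2 and Kcnd1, were chosen after their values were seen. A few genes that the rule names are not reported here. Members and lists were chosen with earlier results of these data known.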

Additional observations from a re-analysis of the deposited data

How the results depend on the processing

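There were 2 libraries a group, and 1 PE library was far shallower than the other. No Kcn entry passed for TSA or for the hairpin alone under any of the 15 alternatives. For both together, 3 entries passed, but 1 without the filter on low values, 0 with only the 2 groups compared in the fit, and 0 to 4 with 1 library left out. All tested entries called for TSA numbered 84, and 3 without the filter, 36 with a prior variance not following the mean, 5 with only the 2 groups compared and 6 to 203 with 1 library left out. For the hairpin the count of 30 became 0, 2, 8 and 7 to 16 under the same changes, and for both together 857 became 374 without the filter, 4 with only the 2 groups and 4 to 941 with 1 library left out. The median estimate of the Kcn entries for TSA, 0.32, was 0.50 with a pseudocount of 0.1 FPKM, 0.17 without the filter, 0.16 with a mean of at least 5 FPKM and 0.0272 under quantile normalization. The hairpin median, −0.32, was −0.59 and −0.43 with pseudocounts of 0.1 and 0.5 FPKM, −0.10 without the filter, −0.52 with a mean of at least 5 FPKM and −0.50 to −0.32 with 1 library left out. The median for both together, 0.16, was −0.46 with a mean of at least 5 FPKM, −0.17 under quantile normalization and −0.22 to 0.26 with 1 library left out. Some of these settings used fewer libraries or entries, and the cause of the differences between settings was not tested. Over all tested entries, differences between replicates 1 and 2 correlated at 0.0735, 0.0396 and 0.122 between groups. These low values do not settle whether the replicate numbers pair the libraries. Summed cardiomyocyte and smooth muscle markers were higher in replicate 1 in each group, and summed fibroblast markers were higher in replicate 2. Sums of the other marker lists had no such fixed order. A replicate block gave 28, 18 and 1063 calls over all entries and 0, 0 and 4 Kcn calls in the 3 comparisons. The adjusted p values against PE ranged over the alternatives from 0.0229 to 0.154 for Kcnk3, 0.0280 to 0.198 for the first Kcnq1 listing, 0.0454 to 0.216 for Kcnd2 and 0.0408 to 0.230 for Kcnip3, and the hairpin p of Kcnk3 from 0.0621 to 0.370. Each of these kept its direction. Groups of 2 cannot show an outlying library.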
